A study of Mus musculus with 15 samples.

Results

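The glucose-sensing transcription factor ChREBP is encoded by Mlxipl, and its level was followed together with 2 partner genes and 7 genes known to respond to it in sorted mouse islet cells. The 10 genes were taken by symbol: Mlxipl, its dimerization partner Mlx, its paralog Mlxip (MondoA), the arrestin-domain genes Txnip and Arrdc4, and the metabolic genes Pklr, Gpd1, Acly, Acaca and Fasn. They are 10 of 22924 genes kept from the tables, and all 10 had a mean level high enough to be among the 11253 genes tested. Mlxipl is in the set because its level was already known to be higher in ALDH+ cells of these libraries, so its ALDH difference is given as a description without a test. The other 9 genes were chosen by their known function, but with earlier results of these data known.

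The 15 RNA-seq libraries came from islets of mice on a mixed 129J and C57BL/6 background. All mice carried a cre transgene and a red fluorescent protein (RFP) reporter, and RFP+ cells were sorted into ALDH- and ALDH+ populations with aldefluor, a fluorescent substrate of aldehyde dehydrogenase. Controls, labelled as heterozygous for Foxo1, Foxo3 and Foxo4, gave 3 ALDH- and 2 ALDH+ libraries, and triple Foxo knockouts gave 5 of each. The methods of the study instead describe the sorted RIP-Cre controls as wild type for these Foxo genes, and the labels were followed here. RIP-Cre, driven by the insulin promoter and so active in beta cells, was used in 9 libraries, and Pdx-Cre, active in pancreatic precursors and so able to mark other islet lineages, in 6. RIP-Cre islets were from 6-month-old mice and were pooled from several animals per genotype, and no age is given for the Pdx-Cre mice. Nothing states that libraries of a group came from separate pools, so p-values measure only the spread between these libraries.

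ChREBP and MondoA are held inactive when glucose is low. When glucose metabolites build up, each pairs with Mlx and binds carbohydrate response elements, which are paired E-box-like motifs in promoters. In beta cells Txnip is a well known target of this pathway, and in liver the pathway drives glycolysis and the making of fatty acids through Pklr, Acly, Acaca and Fasn. The comparison of ALDH+ with ALDH- cells therefore asks whether a higher Mlxipl level comes with higher levels of these targets.

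Promoter sequences were searched for spellings of such elements and for a single E-box, which shows where the letters occur and not where a factor binds. The RefSeq promoter table (GRCm38.p6) held 11 windows for 9 of the 10 genes, each from 250 bases before to 50 bases after an annotated start. The deposited tables use another build, mm9, in which Mlxipl spans chr5:135582761-135614252 and Txnip chr3:96361880-96365780, and no position was carried between builds. A pair of spellings was searched on both strands: the E-box CACGTG, and a paired element made of CACGNG and CNCGNG with 5 bases between them, in which N is any base. The paired spelling was written to take in the known elements of Txnip and Pklr, so its matches there are no finding. It was present in 0.365% of 32851 windows of the same length, and CACGTG in 7.15%. The 250 bases before the start are printed 5′ to 3′ with the match in capitals. This was done for the upstream start of Mlxipl, both arrestin-domain genes and the downstream start of Pklr. They are chr5:135089640-135089889 on the plus strand (Mlxipl), chr3:96557707-96557956 on the plus strand (Txnip), chr7:68749239-68749488 on the minus strand (Arrdc4) and chr3:89136373-89136622 on the plus strand (Pklr).
Mlxipl: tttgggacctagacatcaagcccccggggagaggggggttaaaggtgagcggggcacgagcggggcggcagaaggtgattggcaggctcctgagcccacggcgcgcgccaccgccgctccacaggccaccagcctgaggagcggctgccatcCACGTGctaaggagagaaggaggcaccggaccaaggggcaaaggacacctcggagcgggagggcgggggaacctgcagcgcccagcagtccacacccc
Txnip: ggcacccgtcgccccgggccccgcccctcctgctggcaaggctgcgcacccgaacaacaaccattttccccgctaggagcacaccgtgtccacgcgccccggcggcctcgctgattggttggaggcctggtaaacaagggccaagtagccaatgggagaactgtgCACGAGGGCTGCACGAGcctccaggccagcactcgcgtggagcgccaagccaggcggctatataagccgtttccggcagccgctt
Arrdc4: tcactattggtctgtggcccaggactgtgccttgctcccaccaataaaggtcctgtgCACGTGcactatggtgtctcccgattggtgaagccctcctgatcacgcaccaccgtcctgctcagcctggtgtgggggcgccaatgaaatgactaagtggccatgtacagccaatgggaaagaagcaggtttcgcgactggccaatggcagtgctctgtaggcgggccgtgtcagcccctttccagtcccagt
Pklr: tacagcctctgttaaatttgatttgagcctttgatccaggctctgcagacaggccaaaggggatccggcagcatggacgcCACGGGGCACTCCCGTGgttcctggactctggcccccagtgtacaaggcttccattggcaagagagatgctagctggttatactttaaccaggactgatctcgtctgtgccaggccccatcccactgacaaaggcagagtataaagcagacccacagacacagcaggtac
The paired element began 85 bases before the Txnip start and 170 bases before the downstream Pklr start. An E-box began 98 bases before the upstream of the 2 Mlxipl starts, 193 before the Arrdc4 start and 40 before the Mlx start. No match was found in the windows of Mlxip, Acly, Acaca and Fasn or at the other starts of Mlxipl and Pklr, which says only that these letters are not in those windows. A Foxo motif, GTAAACA on either strand, began 121 bases before the Txnip start and was present in 3.65% of all windows. None of the other windows of the set held it.

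**Figure D1:**
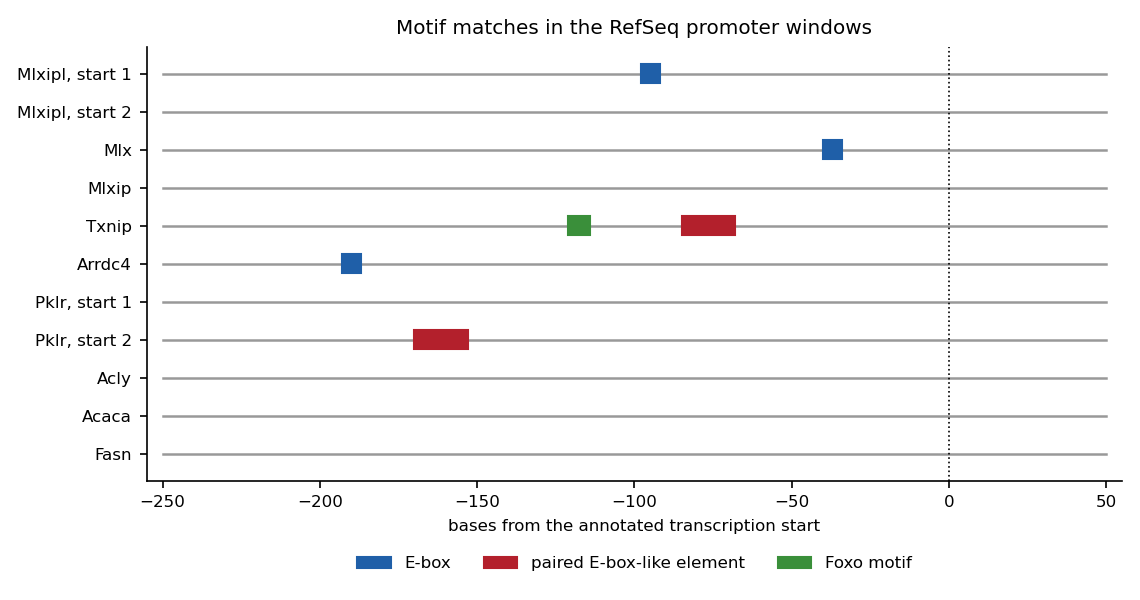
Positions of 3 motif spellings in the 11 RefSeq promoter windows; the horizontal axis is the distance in bases from the annotated start (dotted line), each grey line is a window and each coloured block a match. The paired element lies in the Txnip window and at the second Pklr start. E-boxes lie at the first Mlxipl start and in the Mlx and Arrdc4 windows, and the Foxo motif in that of Txnip.

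Levels are in FPKM, fragments scaled to the length of the transcript and the size of the library. The fragments behind a library's values, worked out from the confidence intervals, summed to between 7479157 and 10043586. The sort marker Aldh1a3 lay between 22.1 and 76.9 FPKM in ALDH+ and between 0.490 and 4.09 in ALDH- libraries. Foxo1 lay between 12.04 and 20.1 FPKM in controls and between 0.0925 and 4.24 in knockouts, with no overlap. Foxo3 covered 12.7 to 23.0 FPKM in controls and 9.78 to 30.6 in knockouts, so its gene-level value did not separate the genotypes, and Foxo4 was at most 1.34 FPKM in any library. The 7 beta-cell markers summed to at least 34540 FPKM in every library, a sum made up mostly of Iapp, while Mafa was between 0.434 and 13.9 FPKM. The endothelial markers summed to at most 1.48 FPKM and the stromal markers to at most 0.715. The duct markers summed to between 94.6 and 155 FPKM, mostly Krt7, and the immune markers to between 19.7 and 148, nearly all of it Cd68 with Ptprc at most 0.0214. The acinar markers ran from 0 to 1362.

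Acly, which makes cytosolic acetyl-CoA from citrate, was the most abundant of the set, with a median of 351 FPKM over the 15 libraries and a range of 273 to 464. Mlxipl followed at a median of 36.7 FPKM, and no library of Mlxipl reached the lowest Acly value. The next medians were 22.8 FPKM for Txnip, 19.3 for Mlx, 13.3 for Mlxip, 11.2 for Gpd1, 8.38 for Fasn, 5.28 for Arrdc4, 4.00 for Pklr and 3.53 for Acaca. Each of these genes overlapped its neighbours in range, so their order is one of medians only. Mlxipl and Arrdc4 varied most between libraries: their highest FPKM was 19.4 and 21.5 times their lowest, against 1.70 times for Acly. For Mlxipl the fragments followed the FPKM, from 307 to 5596 per library. For Arrdc4 they did not: the number of bases over which the fragments would give the listed FPKM ran from 1013 to 4020, a 3.97-fold spread between libraries, and for Mlxip the spread was 3.10-fold, against 1.18 to 1.28 for the other 8 genes. Arrdc4 and Mlxip values thus carry an added uncertainty from the quantification.

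**Figure D2:**
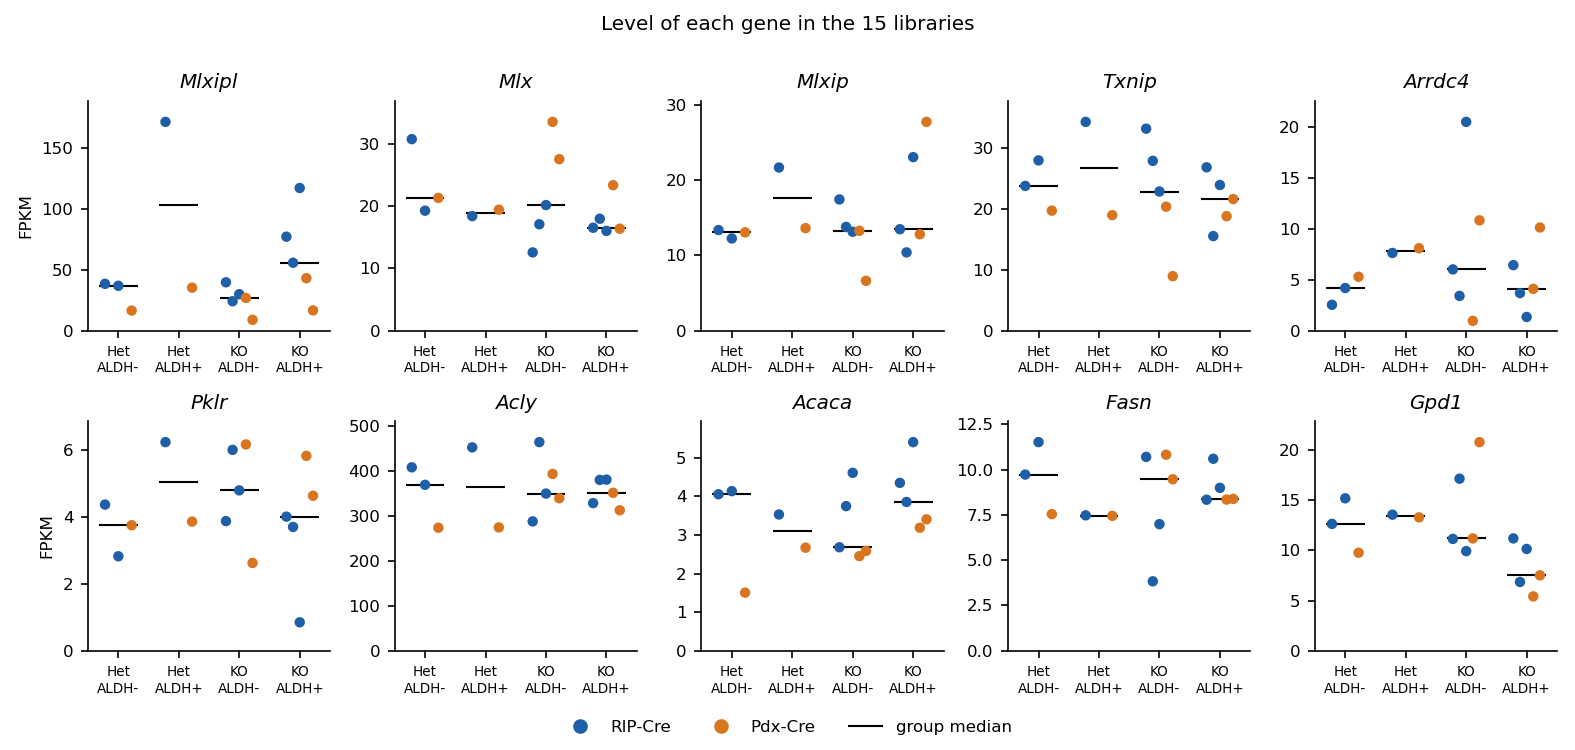
FPKM (vertical axes, each from 0) of the 10 genes by group (horizontal axes; Het is the control, KO the Foxo knockout), with 1 point per library coloured by cre driver and a line at the group median. Mlxipl reached 171 FPKM in a control and 117 FPKM in a knockout ALDH+ library, and for each of the 10 genes the ranges of all ALDH- and all ALDH+ libraries overlapped.

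Mlxipl was higher in ALDH+ cells of both genotypes and under both cre drivers. In RIP-Cre controls its level was 38.3 and 36.7 FPKM in the ALDH- libraries and 171 in the ALDH+ library. In RIP-Cre knockouts it was 39.6, 24.1 and 29.9 FPKM in ALDH- and 77.0, 55.6 and 117 in ALDH+ libraries. In Pdx-Cre mice it was 16.4 FPKM in the control ALDH- and 35.2 in the control ALDH+ library, and in knockouts 26.8 and 8.82 in ALDH- against 43.0 and 16.5 in ALDH+ libraries. All 4 RIP-Cre ALDH+ libraries lay above all 5 RIP-Cre ALDH- libraries, a separation in this direction that 2.51% of tested genes had; nothing is read from that share, since Mlxipl was chosen for its ALDH difference. Within Pdx-Cre the ranges overlapped, since knockout ALDH+ library 5, at 16.5 FPKM, lay below knockout ALDH- library 4, at 26.8.

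The fitted ALDH difference of Mlxipl, averaged over genotypes with the cre driver in the model, was 1.37 ± 0.27 (SE) on the scale of log2(rescaled FPKM + 1), with a 95% interval of 0.79 to 1.94, or 2.58-fold. It was 1.61 in controls and 1.12 in knockouts. Within drivers it was 1.77 in RIP-Cre and 0.85 in Pdx-Cre libraries. In these bulk libraries, more cells that express a gene and more of its RNA per cell cannot be told apart.

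The make-up of the RNA moved with the ALDH sort. The nuclear non-coding RNAs Malat1, Neat1 and Meg3 rose in ALDH+ cells, by 2.44, 2.02 and 2.15 on the log2 scale (adjusted p = 0.00383, 0.00349 and 0.00513), and without control ALDH+ library 1 none of them passed (adjusted p = 0.0986, 0.0882 and 0.108). Of 78 tested ribosomal protein genes, 66 fell in ALDH+ cells and none rose, where 3.77% of all tested genes fell, with a median difference of -0.78. Without control ALDH+ library 1 none of the 78 passed, and the median was -0.67 with all 78 negative. Control ALDH+ library 1 and knockout ALDH+ library 3 had the highest Mlxipl levels and the lowest ribosomal protein medians (6.28 and 6.20, against 6.89 to 7.87 in the other 13 libraries). Without both of them the Mlxipl difference was 0.96 ± 0.31. The pancreatic polypeptide cell markers Ppy and Pyy also fell in ALDH+ cells, by 2.10 and 2.07, and neither passed without control ALDH+ library 1 (adjusted p = 0.194 and 0.312). The alpha-cell markers Gcg and Irx2 had differences of -2.13 ± 0.65 and -0.77 ± 0.32 (unadjusted p = 0.00502 and 0.0284, adjusted p = 0.0671 and 0.178 from limma). Gcg lay between 9533 and 35838 FPKM in Pdx-Cre ALDH- and between 268 and 5822 in Pdx-Cre ALDH+ libraries. None of 7 beta-cell markers passed the threshold, and their median difference was 0.07. The largest was that of Iapp, -0.75 ± 0.40 (adjusted p = 0.311 from limma). Summed, these markers, mostly Iapp, reached 34540 FPKM in control ALDH+ library 1 and 43421 in knockout ALDH+ library 3. The other 13 libraries had 69952 or more. None of 5 acinar markers passed between ALDH populations, and their median difference was 1.30. The part of RNA composition and of these cell types in the Mlxipl difference was not tested.

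**Figure D3:**
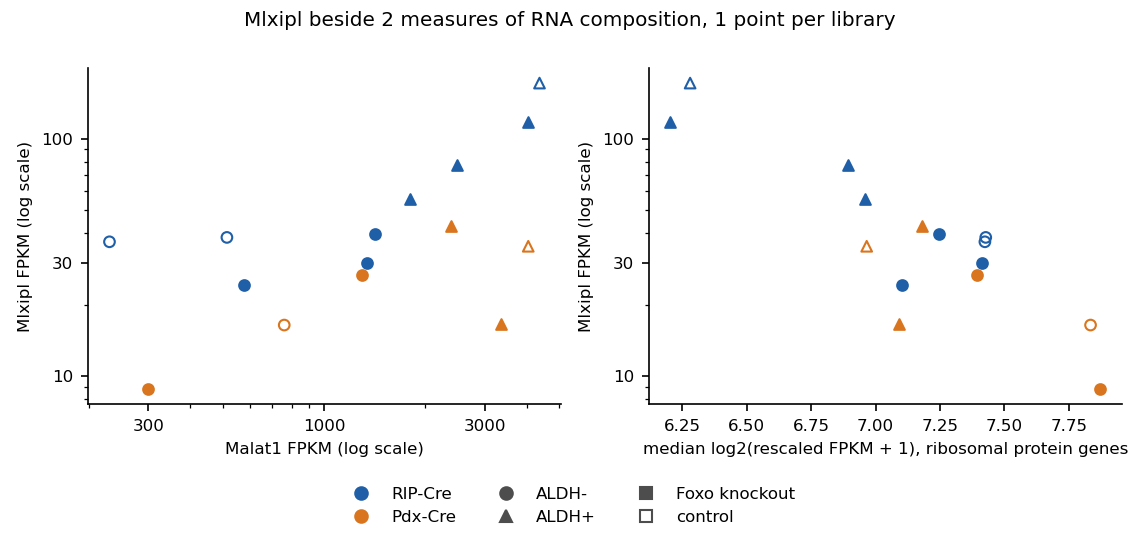
Mlxipl FPKM (vertical axes, log scale) against Malat1 FPKM (left, log scale) and against the median log2 level of ribosomal protein genes (right), with 1 point per library; colour gives the cre driver, triangles are ALDH+, filled points Foxo knockouts. The ALDH+ libraries with 171 and 117 FPKM of Mlxipl have ribosomal medians of 6.28 and 6.20.

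Neither partner gene passed the test between ALDH populations. Mlx, the dimerization partner of both factors, lay between 12.6 and 33.6 FPKM in ALDH- and between 16.03 and 23.4 in ALDH+ libraries. Its difference was -0.29 ± 0.17 (adjusted p = 0.37), with an interval of -0.66 to 0.08. Mlxip, the paralog that shares Mlx, lay between 6.61 and 17.4 FPKM in ALDH- libraries. In ALDH+ libraries it lay between 10.4 and 27.7, and 3 of them were above all ALDH- libraries in FPKM. These 3 held 506, 573 and 651 Mlxip fragments, fewer than the 736 of knockout ALDH- library 1, at 17.4 FPKM. Nothing is therefore read from that separation. The Mlxip values carry the uncertainty from the quantification given above. The difference of Mlxip was 0.39 ± 0.24 (adjusted p = 0.386), with an interval of -0.12 to 0.90.

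None of the 9 genes other than Mlxipl passed an adjusted p of 0.05 between ALDH+ and ALDH- cells, and none had an unadjusted p below 0.05. Among all tested genes 5.99% passed, 2.22% as higher and 3.77% as lower, so 0 of 9 is near that background. The genome-wide count rested on 1 library: 674 genes passed with all 15 libraries and 3 without control ALDH+ library 1. Of the 7 targets, 3 had a positive difference, and their median was -0.0016, beside -0.02 over all tested genes. In controls alone 0 of 9 passed as well, where 1.22% of tested genes did, and 6 of the 7 targets had a positive difference, with a median of 0.10, beside -0.03 over all genes.

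Txnip, an arrestin-domain protein that binds thioredoxin and limits glucose uptake, carried the paired element printed above. Its level in controls was 23.8, 27.9 and 19.7 FPKM in ALDH- and 34.3 and 19.0 in ALDH+ libraries. In knockouts it was 33.2, 27.9, 22.8, 20.3 and 8.93 FPKM in ALDH- and 26.8, 15.5, 23.9, 18.8 and 21.6 in ALDH+ libraries. The control ALDH+ library with 34.3 FPKM was also the one with the highest Mlxipl, but the knockout ALDH+ library with 117 FPKM of Mlxipl had 23.9 FPKM of Txnip, within the ALDH- range. The difference of Txnip was 0.09 ± 0.20 (adjusted p = 0.845), with an interval of -0.34 to 0.52, which leaves room for a change of up to 1.44-fold. It was 0.17 in controls and 0.02 in knockouts.

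Arrdc4, the paralog of Txnip with an E-box in its window, gave the least certain estimate. Its level in controls was 2.53, 4.18 and 5.28 FPKM in ALDH- and 7.62 and 8.08 in ALDH+ libraries. In knockouts it was 6.01, 3.402, 20.5, 0.951 and 10.8 FPKM in ALDH- and 6.42, 3.68, 1.33, 4.09 and 10.1 in ALDH+ libraries. Both control ALDH+ libraries were above all 3 control ALDH- libraries, a separation in this direction that 14.1% of tested genes had, and the knockout groups overlapped over most of their range. The fitted difference was 0.24 ± 0.47 (adjusted p = 0.83), with an interval of -0.77 to 1.24. The library with 20.5 FPKM held 197 fragments and the one with 6.01 FPKM held 223, which shows how far FPKM and fragments parted for this gene.

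None of the glycolytic and lipogenic targets passed the threshold. Pklr, the pyruvate kinase of liver and islet with the other paired element, was between 2.62 and 6.16 FPKM in ALDH- and between 0.850 and 6.22 in ALDH+ libraries. Its lowest value was in knockout ALDH+ library 3, where Mlxipl was 117 FPKM, and it rested on 17 fragments. The fitted difference was -0.0016 ± 0.29 (adjusted p = 0.999), with an interval of -0.61 to 0.61. Acly was the most precise: the difference was -0.0042 ± 0.13 (adjusted p = 0.99) and the interval, -0.29 to 0.28, allows at most a 1.22-fold higher level. Acaca, which makes malonyl-CoA, the building unit of fatty acids, lay between 1.51 and 4.61 FPKM in ALDH- and between 2.67 and 5.40 in ALDH+ libraries, with a difference of 0.18 ± 0.19 (adjusted p = 0.658). Fasn, the fatty acid synthase, lay between 3.83 and 11.5 FPKM in ALDH- and between 7.45 and 10.6 in ALDH+ libraries, with a difference of -0.09 ± 0.20 (adjusted p = 0.848). With the trend of the differences on gene length removed, that of Fasn was -0.39 ± 0.21 (adjusted p = 0.374).

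Gpd1, the cytosolic glycerol-3-phosphate dehydrogenase that links glycolysis to lipid synthesis and NADH shuttling, had its lowest levels in knockout ALDH+ libraries. In knockouts its level was 11.2, 17.2, 9.93, 11.2 and 20.8 FPKM in ALDH- and 11.2, 6.86, 10.1, 5.42 and 7.52 in ALDH+ libraries. In controls it was 12.6, 15.2 and 9.77 FPKM in ALDH- and 13.6 and 13.3 in ALDH+ libraries. The groups overlapped in both genotypes, though 3 knockout ALDH+ libraries lay below every ALDH- library. The difference averaged over genotypes was -0.29 ± 0.21 (adjusted p = 0.491). In knockouts alone it was -0.68 ± 0.24, with an unadjusted p of 0.0127 from limma that did not hold after adjustment (adjusted p = 0.245); 13.1% of tested genes had an unadjusted p below 0.05 in that comparison and 0.0178% passed.

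**Figure D4:**
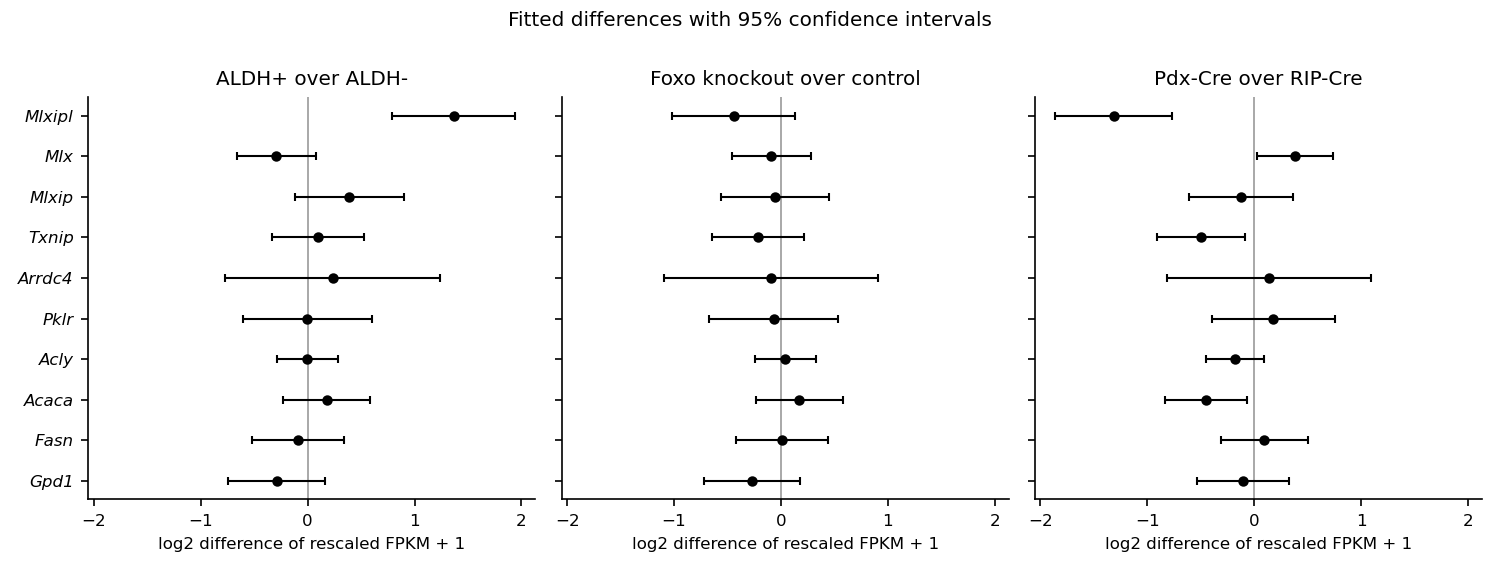
Fitted log2 differences (points) with 95% confidence intervals (bars) of the 10 genes for ALDH+ over ALDH-, Foxo knockout over control and Pdx-Cre over RIP-Cre; the vertical line marks no difference. The interval of Mlxipl lies above 0 in the first comparison (0.79 to 1.94) and below 0 in the third (-1.86 to -0.77).

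Loss of the Foxo genes was not accompanied by a detectable change of the set. None of the 10 genes passed between knockout and control cells, where 0.116% of tested genes did. Mlxipl had a difference of -0.44 ± 0.27 (adjusted p = 0.772), with an interval of -1.01 to 0.13. Txnip, with the Foxo motif in its window, had a difference of -0.22 ± 0.20 (adjusted p = 0.897), with an interval of -0.65 to 0.21. The other 6 targets had differences between -0.27 and 0.17. The ALDH difference was not shown to differ between genotypes for any of the 10: the interaction was -0.49 ± 0.54 for Mlxipl (adjusted p = 0.998) and -0.15 ± 0.41 for Txnip (adjusted p = 0.998), and limma called 0 of 11253 genes, of which 476 had an unadjusted p below 0.05.

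The cre drivers were compared next. Mlxipl was lower in Pdx-Cre than in RIP-Cre libraries by 1.32 ± 0.26 on the log2 scale within groups, that is at 0.402 of the RIP-Cre level, with an adjusted p of 0.00511. It was the 1 gene of 10 to pass, where 9.73% of tested genes passed, 4.05% as lower and 5.68% as higher. The ALDH difference of Mlxipl was not shown to differ between drivers (interaction -0.78 ± 0.49, adjusted p = 0.994, with 0 genes called by limma and 511 below an unadjusted p of 0.05). Txnip and Acaca had negative differences, -0.50 ± 0.19 and -0.45 ± 0.18, with unadjusted p of 0.0202 and 0.0253 that did not hold after adjustment (adjusted p = 0.116 and 0.131). With effective fragments in place of FPKM Acaca did pass (adjusted p = 0.0444). Mlx had a difference of 0.38 ± 0.17 (unadjusted p = 0.0358, adjusted p = 0.16). The other 6 genes had differences between -0.18 and 0.18.

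The cells behind the cre comparison also differed in their markers. Of 7 beta-cell markers 6 fell in Pdx-Cre libraries, with a median of -1.24, where 4.05% of all tested genes fell. The glucose transporter gene Slc2a2 was between 8.61 and 24.6 FPKM there and between 99.95 and 227 in RIP-Cre libraries. All 3 tested alpha-cell markers rose, where 5.68% of all tested genes did. The summed alpha-cell level was 157 to 1019 FPKM in RIP-Cre and 277 to 35849 in Pdx-Cre libraries. One of 2 delta-cell and 1 of 2 pancreatic polypeptide cell markers rose as well. Of the immune markers Cd68 rose by 1.46 ± 0.24 (adjusted p = 0.00146). Ptprc, at most 0.0214 FPKM, and Lyz2, at most 0.688, were too low to be tested. Of the duct markers Krt19 rose by 1.90 ± 0.48 (adjusted p = 0.0204). That call was lost without any 1 of 3 libraries, control ALDH+ 1 and 2 and knockout ALDH- 5. The duct marker Krt7 had a difference of -0.02 ± 0.12 (adjusted p = 0.951). The Cd68 and Krt19 calls are therefore not read as changes of a cell type. Of the acinar markers 1 of 5 rose, the chymotrypsinogen gene Ctrb1 (4.83 ± 1.29, adjusted p = 0.0269 from limma). The summed acinar level was at most 1.72 FPKM in RIP-Cre libraries and uneven in Pdx-Cre libraries. It was 1362 in control ALDH+ library 2, 635 in knockout ALDH+ library 5 and 362 in knockout ALDH- library 5. In the remaining Pdx-Cre libraries it was 0.140, 0.285 and 8.30. The driver, the mice and the levels of these markers vary together, and their part in the lower Mlxipl level was not tested.

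Within groups and drivers the targets were then set against the Mlxipl level of the same library. The slope is the change in a gene's log2 level per unit of log2 Mlxipl, fitted with group and driver in the model. None of the 9 genes passed, and 1 of 11252 tested genes did (0.00889%): Cox5a, a subunit of mitochondrial cytochrome c oxidase, with a slope of -0.83 ± 0.11 (adjusted p = 0.0332). Cox5a did not pass when any 1 of 10 of the 15 libraries was left out, with an adjusted p of up to 0.526, nor without the filter on low values, on the values as deposited, without the mean-variance trend, with the length trend removed or with the replicate block. Txnip had a slope of 0.24 ± 0.20 (adjusted p = 0.702). Arrdc4 had a slope of -1.09 ± 0.39, which was opposite to a shared rise and did not hold after adjustment (unadjusted p = 0.0139, adjusted p = 0.363), and its values carry the uncertainty given above. The slopes of the other 5 targets lay between -0.20 and 0.16.

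**Figure D5:**
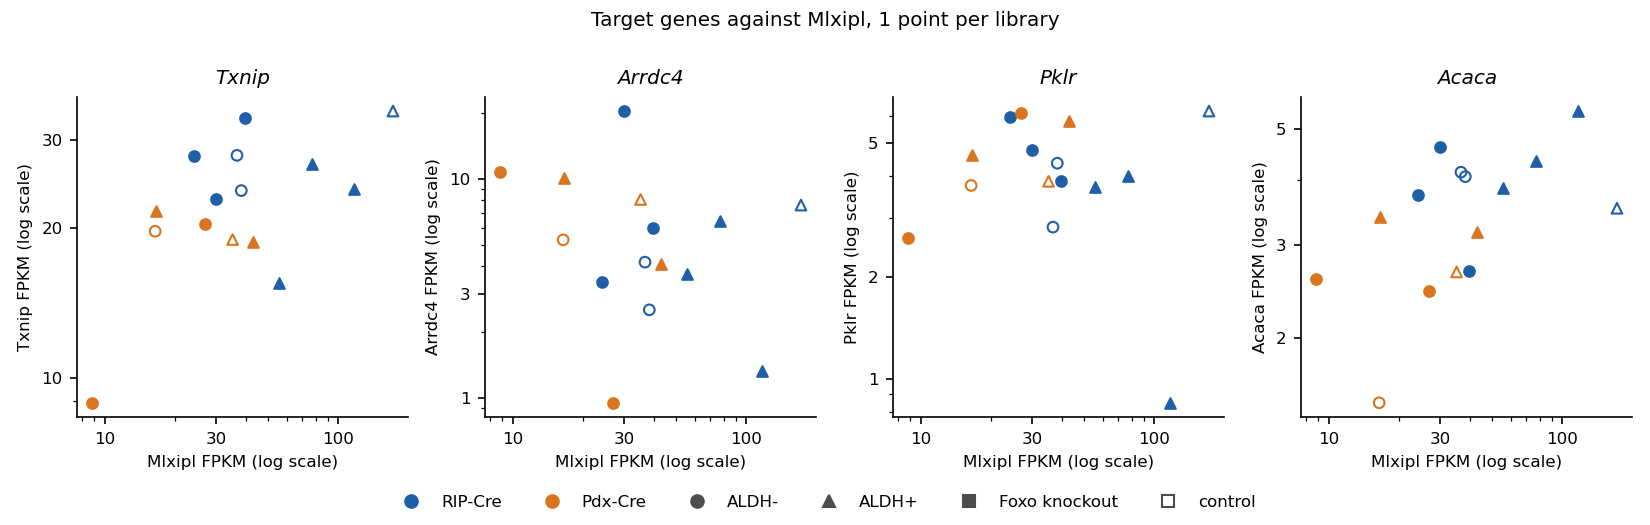
FPKM of Txnip, Arrdc4, Pklr and Acaca (vertical axes, log scale) against Mlxipl FPKM (horizontal axes, log scale), with 1 point per library; colour gives the cre driver, triangles are ALDH+, filled points Foxo knockouts. Across a 19.4-fold range of Mlxipl, Txnip covers 8.93 to 34.3 FPKM, and the knockout library with 117 FPKM of Mlxipl has the lowest Pklr value.

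Over all 15 libraries the 5 genes most like Mlxipl in pattern were none of the other 9. By Pearson r on the log2 scale they were Peg3, an imprinted zinc-finger gene (0.93), Akap9, a scaffold protein gene (0.92), Col6a6, a collagen gene (0.92), Dmxl2 (0.90) and Ppp4r1l-ps, a pseudogene (0.90). Peg3 lay between 80.8 and 193 FPKM in ALDH- and between 168 and 439 in ALDH+ libraries. Among the set Txnip had the highest r, 0.56, place 1171 of 11252 genes, followed by Acaca at 0.52 (place 1447) and Mlxip at 0.42. Mlx was lowest at -0.44. These values describe libraries that share their ALDH sort, driver and RNA composition.

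The wider pathway was read from lists of related genes. Of 13 tested genes on a list of other carbohydrate-response genes, none rose in ALDH+ cells and 1 fell: Tkt, the transketolase of the pentose phosphate pathway, by 0.71 ± 0.19 (adjusted p = 0.0383). This 1 of 13 is near the 3.77% of all tested genes that fell. The list had a median of -0.17, beside -0.02 for all genes. In Pdx-Cre libraries 2 of the 13 rose, where 5.68% of all tested genes did. They were Bhlhe40, a repressor of the basic helix-loop-helix family (1.19 ± 0.22, adjusted p = 0.00385), and Thrsp, a lipogenic regulator (1.68 ± 0.44, adjusted p = 0.0245). Their direction was opposite to that of Mlxipl, and nothing about the pathway is read from so few genes. Thrsp missed the threshold in 2 of the 15 fits that left out 1 library (adjusted p up to 0.053). Among 7 tested genes of the wider Max and Mlx network, 1 rose in ALDH+ cells, Mga, a Max partner, by 0.52 ± 0.14 (adjusted p = 0.0366). Of 11 genes of the sterol-regulated arm 1 fell, Fdps, a farnesyl diphosphate synthase, by 0.49 ± 0.14 (adjusted p = 0.0487). Among all tested genes 2.22% rose and 3.77% fell in ALDH+ cells, so a single call per list is near that background. Without control ALDH+ library 1 none of the 3 passed (adjusted p = 0.348 for Tkt, 0.273 for Mga and 0.255 for Fdps). Tkt and Mga each passed in 6 and Fdps in 3 of the 15 fits that left out 1 library.

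Of 7 further arrestin and thioredoxin genes none passed between ALDH populations, where 5.99% of all tested genes did. In Pdx-Cre libraries 2 of the 7 rose, where 5.68% of all tested genes did. They were Txn1, the thioredoxin that Txnip binds (0.83 ± 0.16, adjusted p = 0.00488), and Arrdc1 (0.90 ± 0.27, adjusted p = 0.0493). Arrdc1 passed in 2 of the 15 fits that left out 1 library. Of 9 tested genes of glucose entry and sensing, none passed between ALDH populations. By driver 2 of the 9 rose and 2 fell in Pdx-Cre libraries, where 5.68% of all tested genes rose and 4.05% fell. Slc2a1, the widely expressed glucose transporter gene, was between 49.0 and 125 FPKM in Pdx-Cre and between 11.4 and 24.9 in RIP-Cre libraries. It rose by 2.18 ± 0.20 (adjusted p = 1.06e-05). Gpi1, the glucose-6-phosphate isomerase gene, rose by 1.30 ± 0.12 (adjusted p = 1.4e-05). Slc2a2, the transporter of mature beta cells, fell by 2.87 ± 0.24 (adjusted p = 3.39e-06), and Prkaa1, a catalytic subunit of AMP kinase, fell by 0.55 ± 0.12 (adjusted p = 0.0104). No gene of the 5 lists passed between knockout and control cells.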

How the data were processed

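RNA-seq libraries were prepared from poly-A RNA of sorted cells, and per the labels the reads were handled with bcl2fastq 1.8.4 and TopHat2 2.0.4 on mm9. The authors deposited 1 table per library with FPKM values and confidence bounds in the layout of Cufflinks; the version of the quantifier and the annotation are not given in the sources used here. The study tested read counts, which are not used here. Each table lists 23699 lines. After removal of 248 symbols that recur (712 lines), and of 63 lines where Cufflinks gave no usable estimate in at least 1 library, 22924 genes remained.

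FPKM was rescaled between libraries by TMM without weights, trimming 30% of M-values and 5% of A-values. limma 3.58.1 (R 4.3.3, prior variance allowed to follow the mean) was run on log2(rescaled FPKM + 1), a scale that understates the change of low genes, for genes whose rescaled FPKM averaged at least 1. The model held the 4 groups and the cre driver. Tests were two-sided and adjusted over all tested genes by the method of Benjamini and Hochberg, with a threshold of 0.05. A slope on Mlxipl was added to that model in a separate fit.

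The distance from each FPKM to its upper confidence bound was read as 2 Poisson standard errors, which gives effective fragments. Below 500, 67.0% of them came within 0.02 of a whole number. They cover counting error only. At most 0.008% of non-zero values were equal between any pair of libraries. The tests were checked on simulated data with large planted changes, which does not show their power for differences as small as those of the targets. The genes and lists were chosen with earlier results of these data known. Named from each list were up to 4 genes past the threshold in each direction, and for likeness the 5 genes with the highest Pearson r. Same-numbered knockout libraries correlated at 0.092 to 0.406 after group means were removed, over 0.1 in 4 of 5 pairs. These values do not settle whether numbers pair the libraries. The main model did not take them as pairs, and a replicate block by number was fitted as an alternative. Alternatives covered the pseudocount, filter, scaling, variance trend, gene length, driver, replicate block and left-out libraries. Effective fragments, the block within driver and leaving out both libraries lowest in ribosomal protein genes were added after seeing the data.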

Additional observations from a re-analysis of the deposited data

Results flagged for a closer look

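One value stood apart within its group. Mlx was 23.4 FPKM in knockout ALDH+ library 4, a Pdx-Cre library, while the other 4 knockout ALDH+ libraries lay close together, and the gap to the nearest of them was 0.769 of the whole range of the group. This was 1 of 20 sets of a gene and a group that were checked, and chance flags about 1 in 20.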

How the results depend on the processing

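Mlxipl was not tested between ALDH populations, and none of the other 9 genes passed there under any alternative, in the average or in either genotype, and none of the 10 passed for genotype or either interaction, nor any of 9 for the slope. The cre difference of Mlxipl passed under all its alternatives (-1.54 to -1.05), and with effective fragments in place of FPKM Acaca passed beside it, making 2. The averaged ALDH difference of Mlxipl stayed between 0.85 and 1.77. The counts over all genes were less stable. For the averaged ALDH comparison (674 genes) the count was 420 with no variance trend, 179 with the length trend removed, 185 with no driver in the model, 156 in RIP-Cre and 4 in Pdx-Cre libraries, 3 without both libraries lowest in ribosomal protein genes, and 3 to 842 with 1 library left out, 3 being without control ALDH+ library 1. In controls (137) it was 0 with no trend, with the length trend removed, with no driver and in Pdx-Cre libraries, 19 in RIP-Cre libraries, 444 with the compared groups only, 2 without both libraries and 0 to 253 with 1 left out. In knockouts (2) it was 1 with no filter, with the compared groups only or without both libraries, 0 in RIP-Cre libraries, 7 in Pdx-Cre libraries or with effective fragments, and 1 to 3 with 1 left out. For genotype (13) it was 40 with no filter, 8 with no trend, 6 with no driver, 0 in Pdx-Cre libraries, 5 without both libraries and 1 to 15 with 1 left out. For the genotype interaction (0) it was 16 with no filter, 3 in RIP-Cre libraries, 2 without both libraries and 0 to 3 with 1 left out, and for the driver interaction (0) 3, 1 with effective fragments, 1 without both libraries and 0 to 2. For the driver (1095) it was 709 without both libraries and 703 to 1269 with 1 left out. For the slope (1) it was 0 with no filter, as deposited, with no trend and with the length trend removed, 2 with effective fragments, 60 without both libraries and 0 to 27 with 1 left out. Differences near 0 changed sign. Pklr (-0.0016) became 0.0092 as deposited, 0.016 with the length trend removed, 0.013 with no driver and 0.11 in Pdx-Cre libraries, Acly (-0.0042) became 0.0079 as deposited, 0.12 in RIP-Cre libraries and 0.0026 with effective fragments, and Acaca (0.18) became -0.0932 with the length trend removed, where Fasn went from -0.09 to -0.39 without passing. With 1 library left out the averaged ALDH difference ran from -0.22 to 0.20 for Pklr, -0.15 to 0.13 for Acly, -0.0801 to 0.43 for Arrdc4 and -0.0315 to 0.19 for Txnip. Txnip in controls was -0.17 in Pdx-Cre libraries, -0.0024 without both libraries and -0.0005 to 0.32 with 1 left out, and in knockouts -0.33 in RIP-Cre libraries and -0.20 to 0.19. Its genotype interaction was 0.72 in Pdx-Cre libraries, 0.018 without both libraries and -0.33 to 0.0209, and that of Mlxipl -0.98 to 0.0533. The cause of these shifts was not tested. Where an arm kept 1 library, it was assumed to vary like the other groups. Fewer than 20 fragments, as for Pklr in 1 library, limit single values.

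With same-numbered libraries as a replicate block, the averaged ALDH comparison called 22 genes, the control comparison 2 and the slope 0, and with the block within cre driver the first 2 called 262 and 1. Under the block Pklr was 0.0485, Acaca -0.0091, and the genotype interaction 0.0592 for Mlxipl and 0.0035 for Txnip, and it changed no call of the set. Library numbers were not taken as pairs, although 4 of 5 knockout ALDH+ and 5 of 5 ALDH- libraries correlated best with their own number, which is a hint from the data; with the cre driver removed as well, same-numbered knockout libraries correlated at -0.0438 to 0.0704.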
